A study of Arabidopsis thaliana with 8 samples.

Results

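Transcripts of the selective autophagy receptor NBR1 and of 9 core autophagy genes (ATG8A, ATG8B, ATG8E, ATG8F, ATG8H, ATG8I, ATG18A, ATG5 and ATG7) were followed through the memory phase of heat-primed Arabidopsis seedlings. The genes were selected by their locus identifiers, and each was represented by exactly 1 probe set of its own, giving 10 of the 22746 probe sets analysed. Primed seedlings were wild-type Col-0 plants that, at an age of 5 days, were kept at 37 °C for 1.5 h, returned to 22 °C for 1.5 h and then exposed to 44 °C for 45 min, and that were collected during the following memory phase, at 4, 8, 24 and 48 h. Unprimed Col-0 seedlings were collected at the same 4 times. The heat was given in the dark, and whether the unprimed seedlings were darkened alike is not stated. All seedlings grew on agar with sucrose in long days.

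Expression was measured in whole seedlings with Affymetrix ATH1 arrays, which carry sets of short probes for most Arabidopsis genes. Every combination of treatment and time was covered by 1 array, made from a pool of about 160 seedlings, so that the spread between replicate pools is unknown and no difference at a single time can be tested. Values are log2 expression values with a floor at 2.0, and array medians ranged from 6.99 to 7.08. Differences are primed minus unprimed at the same time, also on the log2 scale, so that a difference of 1 is 2-fold. The 4 unprimed arrays gave the only measure of variation without priming, which also includes time of day and age. In whole seedlings, a lower value cannot be told apart from a smaller share of the cells that express the gene.

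Autophagy encloses parts of the cytoplasm in a membrane vesicle, the autophagosome, and delivers them to the vacuole for breakdown. The vesicle is built around ATG8, a ubiquitin-like protein that is attached to a membrane lipid by a conjugation machinery in which ATG7 is the activating enzyme and ATG5 is part of the ligase. NBR1 binds both ubiquitinated protein aggregates and ATG8 and so brings damaged protein into the autophagosome, and Arabidopsis mutants without NBR1 are sensitive to heat.

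NBR1 and ATG18A were at least 2-fold higher in primed seedlings at 4 and 8 h, and their log2 differences at 24 and 48 h lay between -0.40 and 0.01. ATG8B was higher in primed seedlings at all 4 times, and ATG8F was the only 1 of the 10 genes that was at least 2-fold lower at any time. At 4 h, 2 of the 10 passed 2-fold upwards (NBR1 and ATG18A), where 9.36% of all probe sets did. At 8 h there were 3 (NBR1, ATG8B and ATG18A) and a background of 7.33%. At the late times there were 0, with backgrounds of 2.76% for 24 h and 0.747% for 48 h. ATG8F at 4 h was the only value at least 2-fold lower, and the shares of all probe sets that were so were 9.93, 7.91, 1.67 and 0.932% over the 4 times in order. The remaining 6 genes, ATG8A, ATG8E, ATG8H, ATG8I, ATG5 and ATG7, stayed within 2-fold of the unprimed array at every time. With so few genes, every one of these counts lies within 1 to 3 genes of the background share. Centring each array on the median of 6 reference genes shifted the median difference of all probe sets by -0.16, -0.21, -0.28 and -0.14 at 4, 8, 24 and 48 h. In every primed array and in the unprimed 4 and 48 h arrays, the median level of the 6 lay between UBC21 and ACT2. It lay between UBC21 and UBC9 in the unprimed 8 h array. In the unprimed 24 h array, where UBC21 was low (9.68), it lay between TIP41 and ACT2. The shift thus rests on few genes. UBC21 differed by 0.55, 0.59, 1.12 and 0.14, and ACT2 by -0.23, -0.27, 0.44 and 0.14. The median difference of the 6 genes was 0.065, 0.005, 0.0 and 0.03, smaller than the shift each time. On the reference-centred scale ATG18A stayed past 2-fold at both early times (2.90 and 2.88) and ATG8F at 4 h (-1.35). NBR1 gave 0.96 at 4 h and 1.15 at 8 h, and ATG8B gave 0.88 at 8 h.

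**Figure D1:**
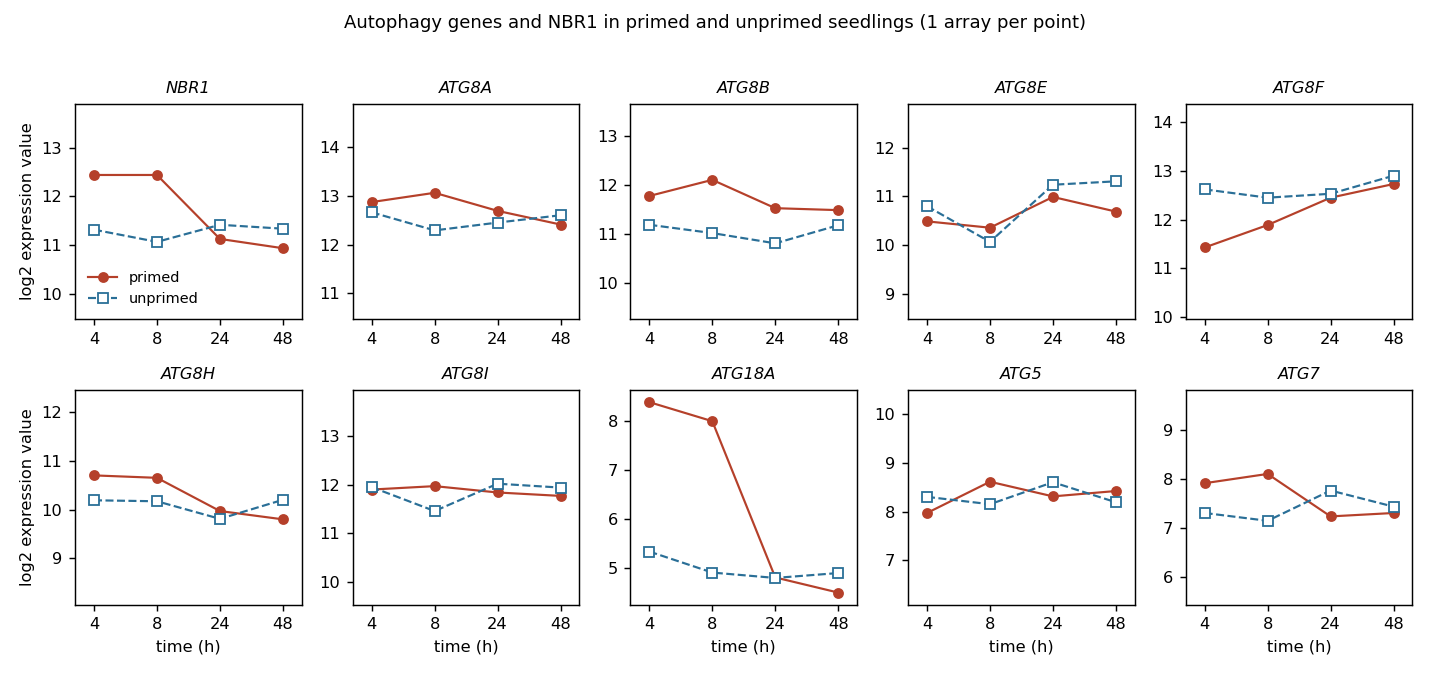
Log2 expression value (y axis, each panel spanning the same number of log2 units) of each gene against time in hours (x axis, evenly spaced categories). Filled red circles are primed arrays and open blue squares are unprimed arrays, 1 array per point, so there are no error bars. NBR1 and ATG18A are separated at 4 and 8 h and meet the unprimed line by 24 h, ATG8B is separated at all 4 times, and ATG8F starts below its unprimed values and approaches them by 24 h.

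NBR1 (AT4G24690) had log2 values of 12.44, 12.44, 11.13 and 10.94 in primed seedlings at 4, 8, 24 and 48 h, against 11.32, 11.07, 11.42 and 11.34 in unprimed seedlings. Both early primed arrays lay above all 4 unprimed arrays, the 24 h primed array lay within their range, and the 48 h primed array lay below all of them, but within their range with the arrays centred on the reference genes. The log2 differences were 1.12, 1.37, -0.29 and -0.40, that is 2.17-fold and 2.58-fold higher at 4 and 8 h and 1.32-fold lower at 48 h. The unprimed arrays averaged 11.29 ± 0.15 (SD over the 4 times) and spanned 0.35, so that the early differences exceeded the whole unprimed range while those at 24 and 48 h were of about its size. The mean difference over the 4 pairs was 0.45 ± 0.925 (SD, n = 4 pairs), with p = 0.5 in a two-sided exact permutation test of its sign, a test that cannot go below 0.125 with 4 pairs. The difference was positive in 2 of 4 pairs and negative in the other 2.

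ATG18A (AT3G62770) encodes a protein of the ATG18 family, which binds phosphatidylinositol 3-phosphate on the growing membrane and is needed for autophagosome formation. Its log2 values were 8.39, 8.00, 4.80 and 4.49 in primed seedlings, against 5.33, 4.90, 4.79 and 4.89 in unprimed seedlings. The 2 early primed arrays stood far above all other arrays, and the 24 h primed array was within the unprimed range. The log2 differences of 3.06 and 3.10 at 4 and 8 h correspond to 8.34-fold and 8.57-fold, the largest in size among the 10 genes. At 24 and 48 h they were 0.01 and -0.40, and the 48 h primed array was the lowest of all 8. Between 8 and 24 h the primed value decreased by 3.2, the largest change between neighbouring times of any of the 10 genes in either treatment.

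The 6 members of the ATG8 family did not move as a unit. ATG8B (AT4G04620) had log2 values of 11.78, 12.11, 11.53 and 11.49 in primed seedlings, against 11.19, 11.02, 10.81 and 11.18 in unprimed seedlings. Every primed array of ATG8B lay above every unprimed array, also with the arrays centred on the reference genes. ATG8B was the only gene of the 10 for which this was so. How large a share of all probe sets did the same was not determined. The differences of ATG8B were 0.59, 1.09, 0.72 and 0.31. Its unprimed arrays spanned 0.38, so that the 48 h difference was smaller than the unprimed range.

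ATG8F (AT4G16520) had the opposite early course, with log2 values of 11.43, 11.89, 12.45 and 12.73 in primed seedlings, against 12.62, 12.45, 12.53 and 12.90 in unprimed seedlings. The 4 and 8 h primed arrays lay below all unprimed arrays, and the 24 and 48 h primed arrays did not. Its differences were -1.19, -0.56, -0.08 and -0.17, and the 4 h value corresponds to 2.28-fold lower. ATG8F was lower in primed seedlings in 4 of 4 pairs, and the unprimed range was 0.45.

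ATG8A (AT4G21980) gave log2 values of 12.87, 13.06, 12.69 and 12.41 in primed seedlings, against 12.66, 12.29, 12.45 and 12.60 in unprimed seedlings. Its primed arrays at 4, 8 and 24 h lay above all unprimed arrays, with differences of 0.21, 0.77 and 0.24, and the 48 h difference was -0.19. ATG8H (AT3G06420), whose protein ends in the exposed glycine that is joined to the lipid, gave 10.70, 10.65, 9.97 and 9.80 in primed seedlings, against 10.19, 10.17, 9.81 and 10.20 in unprimed seedlings. ATG8H was above all unprimed arrays at 4 and 8 h, by 0.51 and 0.48 over the array of the same time, and below all of them at 48 h (difference -0.40).

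ATG8E (AT2G45170) and ATG8I (AT3G15580, annotated as APG8H in the deposited table, with ATG8I as a synonym in RefSeq) showed no primed array outside the range of the unprimed arrays. ATG8E had log2 values of 10.49, 10.36, 10.99 and 10.69 in primed seedlings, against 10.80, 10.07, 11.24 and 11.31 in unprimed seedlings, and the differences were -0.31, 0.29, -0.25 and -0.62. With an unprimed range of 1.24, ATG8E varied more among unprimed arrays than any of the other 9 genes. ATG8I had 11.90, 11.97, 11.84 and 11.77 in primed seedlings, against 11.95, 11.46, 12.02 and 11.94 in unprimed seedlings. The primed arrays of ATG8I spanned 0.20, the smallest primed range of the 10 genes, and its largest difference in size, 0.51 at 8 h, came with a low unprimed 8 h array.

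ATG7 (AT5G45900), the E1-like activating enzyme, gave log2 values of 7.92, 8.11, 7.24 and 7.31 in primed seedlings, against 7.31, 7.15, 7.77 and 7.44 in unprimed seedlings. Its primed arrays at 4 and 8 h were above all unprimed arrays, by 0.61 and 0.96 over the array of the same time, and those of 24 and 48 h lay within the unprimed range (differences -0.53 and -0.13). ATG5 (AT5G17290), the partner of ATG12 in the ligase, gave 7.97, 8.61, 8.31 and 8.42 in primed seedlings, against 8.30, 8.15, 8.60 and 8.19 in unprimed seedlings. The differences of ATG5 were -0.33, 0.46, -0.29 and 0.23, alternating in sign, and its 8 h primed value of 8.61 lay next to the highest unprimed value of 8.60.

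**Figure D2:**
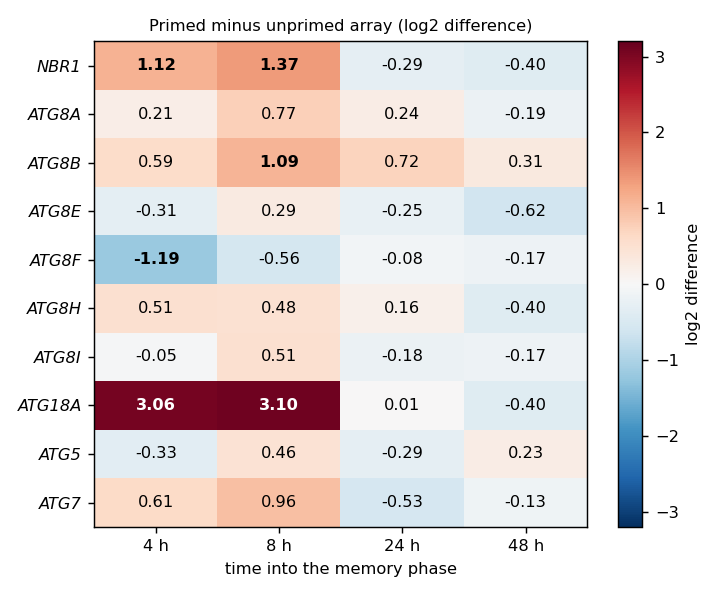
Log2 difference, primed minus unprimed array, for each of the 10 genes (rows) at each time (columns), with the value printed in the cell and values of at least 2-fold in bold. Red is higher and blue is lower in primed seedlings, and the 6 bold cells are those of NBR1 and ATG18A at 4 and 8 h, ATG8B at 8 h and ATG8F at 4 h.

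Compared with the range of the 4 unprimed arrays, primed values of 6, 7, 2 and 1 genes lay above it at 4, 8, 24 and 48 h. Among all probe sets, 26.0, 24.7, 12.7 and 12.6% lay above their unprimed range at these times. The genes above it at both 4 and 8 h were NBR1, ATG8A, ATG8B, ATG8H, ATG18A and ATG7. Below the unprimed range were 2 genes at 4 h (ATG8F and ATG5), 1 at 8 h (ATG8F), 0 at 24 h and 3 at 48 h (NBR1, ATG8H and ATG18A), where 27.1, 23.3, 13.9 and 13.8% of all probe sets lay below at the 4 times in turn. The median difference of the 10 genes was 0.36, 0.64, -0.13 and -0.18 in the same order, while the median of all probe sets was 0 at each time. Positive differences were found for 6, 9, 4 and 2 of the 10 genes, against 45.0, 49.4, 44.5 and 43.7% of the probe sets above the floor, so that the counts at 4 and 24 h were near this share. With the arrays centred on the reference genes, 3 genes lay above the unprimed range at 4 h and the same 3 at 8 h (NBR1, ATG8B and ATG18A), and at 24 and 48 h ATG8B was the 1 gene above it. The direction of ATG8A at 24 h turned with this centring (-0.04 in place of 0.24), as did that of ATG8H at 24 h (-0.12 in place of 0.16) and that of ATG18A at 24 h (-0.27 in place of 0.01).

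No gene of the 10 passed a test across all probe sets. The mean difference over the 4 pairs, fitted with limma with the time as a block, had an adjusted p under 0.05 for 0 of 22746 probe sets (0.0%). Before adjustment, 984 probe sets passed 0.05 with a positive mean effect and 1045 with a negative one. ATG8B, higher in 4 of 4 pairs, had a mean effect of 0.68 (standard error 0.15) and an adjusted p of 0.48 from limma. ATG18A had 1.44 (standard error 0.89, adjusted p = 0.634 from limma), higher in 3 of 4 pairs. ATG8F had -0.50 (standard error 0.24, adjusted p = 0.601 from limma), lower in 4 of 4 pairs. For NBR1 the standard error of 0.43 was about as large as the mean effect of 0.45, and it also holds the change of the effect between early and late times, since times are not replicates. Leaving out each pair in turn gave mean effects of 0.14 (without 8 h) to 0.73 (without 48 h) for NBR1, 0.89 (without 8 h) to 2.06 (without 48 h) for ATG18A and -0.64 (without 24 h) to -0.27 (without 4 h) for ATG8F.

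The effect at 4 and 8 h minus that at 24 and 48 h was 3.28 for ATG18A (standard error 0.19) and 1.59 for NBR1 (standard error 0.12). Their adjusted p from limma was 0.118 for ATG18A and 0.136 for NBR1. ATG7 followed with 1.12 (standard error 0.24, adjusted p = 0.253 from limma), and ATG8F was the only 1 of the 10 with a negative value, -0.75 (standard error 0.29, adjusted p = 0.395 from limma). Of all probe sets, 0 (0.0%) had an adjusted p under 0.05 in this comparison, while 2029 with a positive and 1793 with a negative value passed 0.05 before adjustment. The fit leaves 2 residual degrees of freedom, so the standard errors are themselves poorly known.

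The early differences at 8 h were read against an unprimed 8 h array that was low for many of these genes. It was the lowest of the 4 unprimed arrays for 7 of the 10 genes, against 27.3% of all probe sets above the floor. All 10 genes had a lower unprimed value at 8 h than at 4 h. Their median change was -0.21, against -0.01 for all probe sets above the floor, and the share of all probe sets that fell was not determined. SEN1 and DIN6, which are induced by darkness and sugar starvation, were also low there. SEN1 had an unprimed log2 value of 6.54 at 8 h, against 11.52, 11.82 and 10.91 at 4, 24 and 48 h, and DIN6 was at the floor of 2.0, against 6.60, 8.10 and 6.25. DIN10, the last of the 3 genes listed with them, was 12.28 at 8 h and between 12.72 and 13.36 in the other unprimed arrays. The part of light, sugar or time of day in the low unprimed 8 h values was not tested.

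With the mean of the other 3 unprimed arrays in place of the 8 h array, a comparison added after the data had been seen, the 8 h difference was 1.08 for NBR1, 3.0 for ATG18A, 1.05 for ATG8B, 0.60 for ATG7 and 0.49 for ATG8A. The number of genes at least 2-fold higher at 8 h stayed at 3. ATG8E changed sign, with -0.76 in place of 0.29, and ATG8I gave 0.00 in place of 0.51. ATG8F gave -0.79 in place of -0.56.

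**Figure D3:**
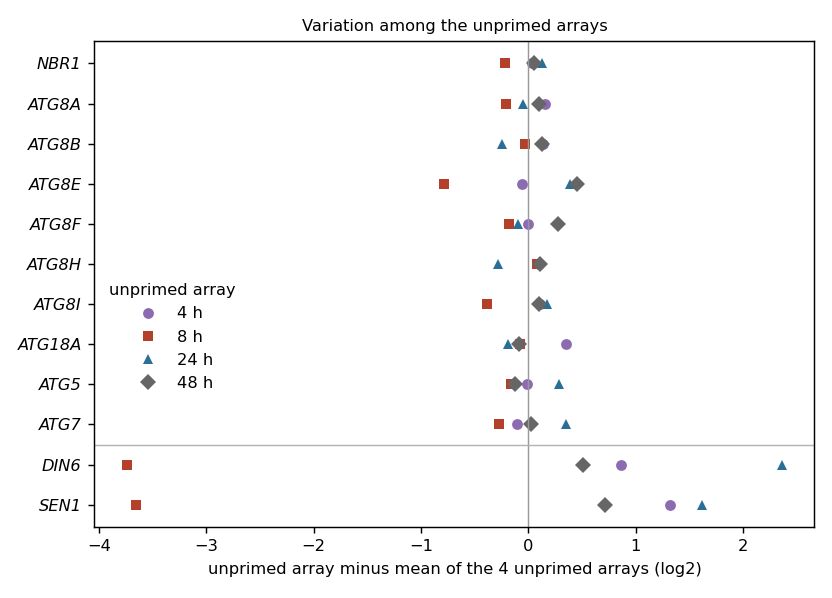
Each unprimed array minus the mean of the 4 unprimed arrays (x axis, log2) for the 10 genes and for the starvation markers DIN6 and SEN1 below the line. Symbols are the 4 times, 1 array each, and the 8 h array (red squares) is the lowest of the 4 for 7 of the 10 genes and for both markers.

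Markers of organs also differed between the pools at the early times, though not all of a list in the same direction. The summed log2 value of 6 root genes (PYK10, EXP7, COBL9, CASP1, SCR and HKT1) was 39.93 in primed and 46.66 in unprimed seedlings at 4 h, and 43.39 and 46.98 at 8 h. At these times 4 and 3 of them were at least 2-fold lower in primed seedlings, where 9.93 and 7.91% of all probe sets were. All 6 were lower at 4 h, but CASP1 (0.39) and HKT1 (0.29) were higher at 8 h. The 4 shoot genes (RBCS1A, LHCB2.1, LHCA1 and LHCA4) summed to 58.56 in primed and 55.84 in unprimed seedlings at 4 h, and to 56.87 and 55.02 at 8 h. Of the 4, only LHCB2.1 was at least 2-fold higher (2.21 and 1.25), where 9.36 and 7.33% of all probe sets were. LHCA1 (0.42 and 0.54) and LHCA4 (0.27 and 0.34) were higher by less, and RBCS1A was lower (-0.18 and -0.28). At 24 and 48 h none of these root or shoot genes was past 2-fold. Of 6 seed storage and embryo genes, 5, 1, 5 and 1 were at least 2-fold lower in primed seedlings at 4, 8, 24 and 48 h. Among all probe sets, 9.93, 7.91, 1.67 and 0.932% were so. The 6 genes had median differences of -1.70, -0.05, -4.75 and -0.22. Their sum in the unprimed 24 h array, 38.90, was the highest of the 8 arrays. The primed 24 h sum was 12.49, with CRU3, SESA1, SESA5 and EM1 at the floor. The part of organ composition in the values of NBR1 and the ATG genes was not tested.

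The rest of the autophagy machinery was examined through lists of 39 further genes with a probe set, covered by 39 probe sets. At 4 h, 5 of these were at least 2-fold higher and 2 lower in primed seedlings. At 8 h, 8 were higher and 0 lower, and at 24 h 1 was higher and 1 lower. At 48 h, 0 were higher and 2 lower. Among all probe sets, 9.36, 7.33, 2.76 and 0.747% were at least 2-fold higher at the 4 times, and 9.93, 7.91, 1.67 and 0.932% lower. The counts at 4 h lay near these shares. The median difference of the 39 was 0.16, 0.61, -0.10 and -0.12 at 4, 8, 24 and 48 h. Of the 39, 24 stayed within 2-fold at every time, and the share of all probe sets that did so was not determined. The unprimed 8 h array was the lowest of the 4 unprimed arrays for 25 of the 39, against 27.3% of all probe sets above the floor. Not all of the 8 probe sets higher at 8 h stayed past 2-fold with the mean of the other 3 unprimed arrays as control.

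At both 4 and 8 h, 3 of the 39 probe sets were at least 2-fold higher, as were NBR1 and ATG18A and 4.51% of all probe sets. ATG8D, the only 1 of the 3 remaining ATG8 genes past 2-fold, had log2 values of 11.71, 11.13, 9.57 and 9.92 in primed seedlings, against 10.29, 9.88, 10.27 and 9.92 in unprimed seedlings, with differences of 1.42, 1.25, -0.70 and 0.00. ATG6, the Beclin homologue of the PI3 kinase complex that marks the site of autophagosome formation, gave 8.95, 8.60, 8.10 and 8.23 in primed seedlings, against 7.83, 7.49, 8.13 and 8.23 in unprimed seedlings. Its differences were 1.12, 1.11, -0.03 and 0.00. AT2G32760, listed with the same complex and without a name in the annotation, gave 7.85, 7.24, 6.09 and 6.32 in primed seedlings, against 5.69, 5.68, 6.14 and 6.12 in unprimed seedlings (differences 2.16, 1.56, -0.05 and 0.20). Against the mean of the other 3 unprimed arrays, the 8 h differences were 0.97 for ATG8D, 0.54 for ATG6 and 1.26 for AT2G32760.

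In the PI3 kinase list as a whole, 2 of 5 probe sets passed 2-fold upwards at 4 h and 3 of 5 did at 8 h, set against 9.36 and 7.33% of all probe sets. The additional probe set at 8 h was that of AT1G77890, with differences of 0.00 at 4 h and 1.33 at 8 h. With the mean of the other 3 unprimed arrays as the control at 8 h, AT1G77890 and ATG6 each gave 0.54. AT2G32760 gave 1.26, VPS34 0.11 and VPS15 0.38, so that AT2G32760 alone stayed past 2-fold. Among genes of the ATG9 and ATG18 group, ATG18C was higher by 1.59 at 4 h and 0.77 at 8 h, and ATG9 by 0.54 and 1.04. ATG18G gave -1.03 at 48 h, and ATG18E was at the floor in all arrays. ATG18D, ATG18F and ATG18H stayed within 2-fold at every time.

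The ATG1 kinase list, which starts autophagosome formation, had 0 members at least 2-fold higher at any time. AT2G37840 and AT1G49180, both annotated as protein kinases, gave -1.36 and -1.38 at 4 h. AT1G49180 was close to the floor, with log2 values of 2.54 in primed and 3.92 in unprimed seedlings at 4 h. A further probe set of AT2G37840 was at the floor in every array. In the conjugation list, no member was at least 2-fold higher, and the only probe set past 2-fold was that of ATG4A, the protease that processes ATG8 (-1.28 at 24 h and -1.71 at 48 h). This probe set is shared with AT2G44130, annotated as a kelch-repeat F-box protein, so that the transcript cannot be assigned. AT5G50230 of the same list, within 2-fold, had 0.71, 0.84, -0.39 and -0.33.

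The other receptors and adaptors of selective autophagy were higher in primed seedlings at 4 and 8 h in 5 of 5 probe sets, where 45.0 and 49.4% of the probe sets above the floor were higher. Of the 5, 1 was past 2-fold at 4 h and 3 at 8 h, set against 9.36 and 7.33% of all probe sets. TSPO, a membrane protein that binds porphyrin, had log2 values of 5.93 in primed and 3.33 in unprimed seedlings at 4 h, with differences of 2.60, 0.95, 0.01 and 0.04. ATI1, an ATG8-interacting protein, gave 0.80, 1.23, 0.11 and -0.29. The ubiquitin receptors DSK2A and DSK2B share 1 probe set, which gave 0.83, 1.11, -0.18 and -0.07. RPN10, the ubiquitin receptor of the proteasome, gave 0.68, 1.06, 0.81 and -0.34. Against the mean of the other 3 unprimed arrays, the 8 h difference was 0.82 for ATI1 and 0.00 for ATI2. For the probe set of DSK2A and DSK2B it was 1.03, for RPN10 1.54 and for TSPO 1.46.

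Among the upstream kinases TOR, RAPTOR1B, KIN10 and KIN11, the only difference past 2-fold was 1.44 for KIN10, a catalytic subunit of the energy sensor SnRK1, at 24 h. It came with a low unprimed 24 h array. KIN10 had 7.62, 7.63, 7.27 and 7.49 in primed seedlings, against 7.59, 7.63, 5.83 and 7.39 in unprimed seedlings. In the same unprimed array ATG9 (6.50), RPN10 (6.36) and the reference gene UBC21 (9.68) also had their lowest values.

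**Figure D4:**
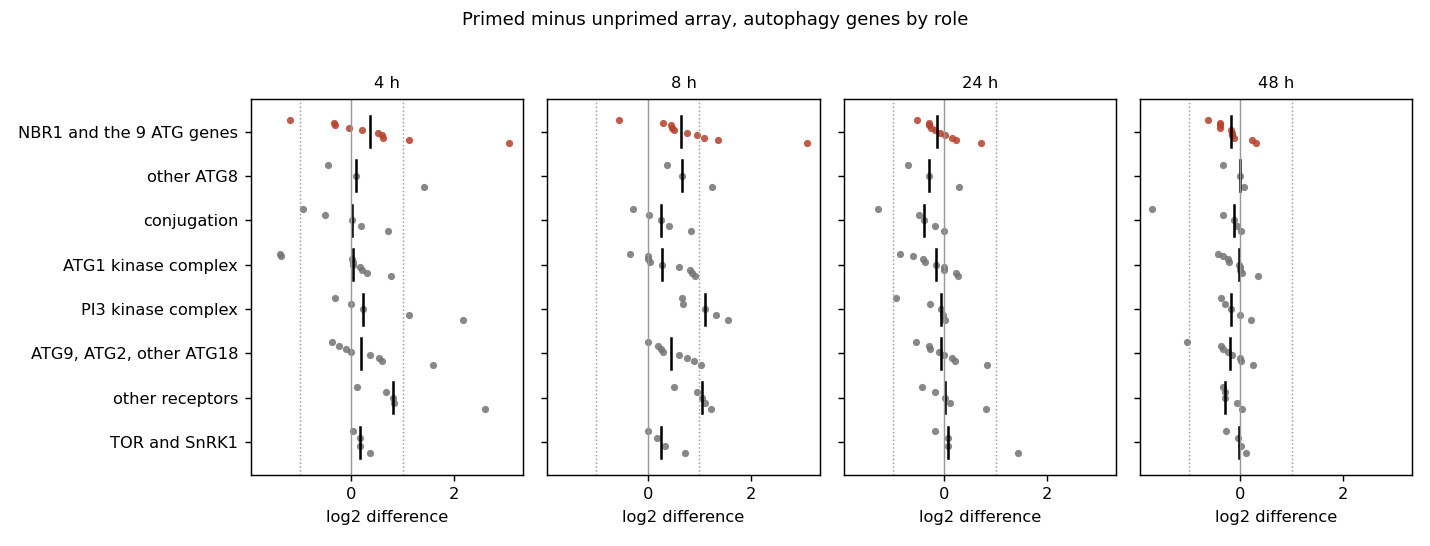
Log2 difference, primed minus unprimed array (x axis), of every probe set of NBR1 and the 9 ATG genes (red) and of 7 other autophagy lists (grey), at 4, 8, 24 and 48 h. Each point is 1 probe set, black bars are list medians and dotted lines mark 2-fold, and the PI3 kinase and receptor lists have their medians at 1.11 and 1.06 at 8 h, while all medians lie between -0.39 and 0.07 at 24 and 48 h. The unprimed 8 h array was the lowest of the 4 unprimed arrays for 25 of the 39 grey probe sets.

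NBR1 was set beside the ubiquitin ligase CHIP, which acts in parallel with NBR1 in heat tolerance, and beside HSP90.1 and ROF1, a chaperone and its immunophilin partner that are NBR1 targets in recovery from heat. CHIP had log2 values of 8.69, 8.63, 7.49 and 7.18 in primed seedlings, against 7.06, 6.82, 7.42 and 7.18 in unprimed seedlings. Its differences, 1.63, 1.81, 0.07 and 0.00, had the same order over the 4 times as those of NBR1. ROF1 gave 2.06, 1.11, -0.12 and 0.25. HSP90.1 was the only 1 of these past 2-fold at 24 and 48 h, with 7.29, 4.85, 2.75 and 1.84, while HSFA2, a transcription factor of heat stress memory, gave 10.41, 5.75, 0.35 and 0.04. NBR1, ATG18A and CHIP had larger differences at 8 h than at 4 h, and HSP90.1, HSFA2 and ROF1 had smaller ones at 8 h than at 4 h. For NBR1 this order is reversed with the mean of the other 3 unprimed arrays as the control (1.16 at 4 h and 1.08 at 8 h), as it is for ATG18A (3.53 and 3.0) and CHIP (1.55 and 1.41). With that control HSP90.1 gave 0.99 at 48 h, just under 2-fold.

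**Figure D5:**
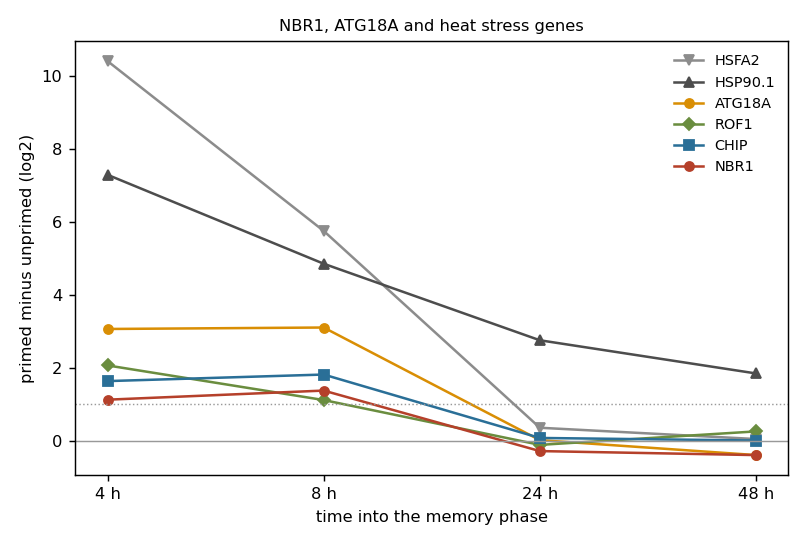
Log2 difference, primed minus unprimed array (y axis), against time (x axis, evenly spaced categories) for NBR1, ATG18A, CHIP, ROF1, HSP90.1 and HSFA2, 1 pair of arrays per point. The dotted line marks 2-fold, and at 24 h HSP90.1 (2.75) is the only gene above it.

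The probe sets most like NBR1 over the 8 arrays were found among 7249 single-gene probe sets with a highest log2 value of at least 6 and a range of at least 1. Pearson's r was 0.988 for AT1G16850, without a described function, 0.987 for AT1G20110, annotated as a FYVE-type zinc finger protein, and 0.984 for AT1G26300, annotated as a BSD-domain protein. UNE18, annotated as an oxysterol-binding protein, had 0.983, and AT1G15130, annotated as a hydroxyproline-rich glycoprotein, had 0.981. An r of at least 0.95 was reached by 138 of the 7249. These correlations are descriptions over 8 arrays that share 1 normalization, and they rest on the 2 early primed arrays, which stand apart from the other 6 for each of these probe sets. AT1G20110 had differences of 0.92, 1.21, -0.36 and -0.26, close to those of NBR1, and AT1G16850 had 3.75, 3.98, -0.61 and -0.82.

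Within each treatment, the median change of the 10 genes between neighbouring times was largest in size between 8 and 24 h. From 4 to 8 h, a shorter interval, it was 0.13 in primed and -0.21 in unprimed seedlings. Single genes differed in this, and ATG18A in unprimed seedlings changed more from 4 to 8 h (5.33 to 4.90) than from 8 to 24 h (4.90 to 4.79). In primed seedlings, 8 of the 10 decreased between 8 and 24 h (median -0.475). NBR1 and ATG18A did so by more than 2-fold, a change in either direction that 12.6% of all probe sets showed. In unprimed seedlings, 3 of 10 decreased and the median change was 0.255, with ATG8E as the 1 gene past 2-fold (1.17), against 6.57% of all probe sets. Between 24 and 48 h no gene changed 2-fold in either treatment, where 2.2% of all probe sets did in primed and 2.72% in unprimed seedlings, with medians of -0.12 in primed and 0.085 in unprimed seedlings.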

How the data were processed

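The authors deposited log2 expression values per probe set of the Affymetrix ATH1 array, normalized between arrays, in a table of primed against unprimed seedlings and in a second table that was equal to it in every cell. GCRMA and RMA are the tools listed in the submitters' processing notes, with no version. A build is not stated in the sources used here. The first table also holds the authors' own differences, which were not used. The number of arrays and the floor at 2.0, where 5240 of 22746 probe sets (23.0%) lay in all arrays (within 0.05), limit the precision.

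Of 22810 probe sets, 64 controls were left out. Samples were grouped by the treatment and time in their labels. Differences were taken between the primed and unprimed array of each time and counted at 2-fold, the limit of the study. Mean and early minus late effects were fitted with limma 3.58.1 in R 4.3.3 over all probe sets, with the Benjamini-Hochberg adjustment and a threshold of 0.05. Simulated data with this design served only to check that planted effects were estimated near their size on average. Unlike the real data, they held no change over time beyond the planted effects. Symbols were taken from the deposited annotation and from RefSeq (TAIR10.1). The 10 genes and the lists were chosen with earlier results of these data known. Named were all 10 genes, every other listed autophagy gene at least 2-fold higher or lower at any time, CHIP, ROF1, HSP90.1 and HSFA2, and the 5 probe sets most like NBR1; AT5G50230 and the within-2-fold genes named beside them were chosen after their values were seen. ATG10, ATG12B, AT4G08540 and ATG18B have no probe set here. Alternatives were quantile normalization, centring on 6 reference genes (ACT2, UBQ10, PP2AA3, UBC21, TIP41 and UBC9), a floor raised to the 30th percentile of all values (2.39), the other table, other control arrays, fold limits of 1.5 and 4, other limma settings, and leaving out each pair or unprimed array in turn. A search for promoter motifs was not run, and no sequences were used here.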

Additional observations from a re-analysis of the deposited data

Results flagged for a closer look

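NBR1 and ATG7 moved in opposite directions early and late: both early pairs of arrays were higher in primed seedlings and both late pairs were lower. The early minus late effect was 1.59 for NBR1 and 1.12 for ATG7, and neither passed limma's test of this difference over all probe sets (adjusted p = 0.136 and 0.253, and between 0.0811 and 0.789 for NBR1 and 0.133 and 0.789 for ATG7 over the settings tried). The share of all probe sets with such a change of sign was not determined. In the other autophagy lists ATG3, ATG11, ATG13, AT3G61960, AT5G50230, ATG18D, ATI2, RAPTOR1B and the probe set of DSK2A and DSK2B showed it too. The rest of those lists did not. For NBR1 the late differences of -0.29 and -0.40 compare with a range of 0.35 among unprimed arrays, and for ATG7 those of -0.53 and -0.13 compare with a range of 0.62. Both late primed arrays of ATG7 lay within that range. With the mean of the other 3 unprimed arrays as the control, the late differences were -0.11 and -0.33 for NBR1 and -0.06 and -0.10 for ATG7. ATG18A had a larger value of 3.28, but its late differences, 0.01 and -0.40, were of both signs.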

How the results depend on the processing

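Quantile normalization, the raised floor and the other table left the counts of genes past 2-fold within 1.5 times of those given, and so did both other choices of control arrays. Centring on the reference genes gave 1 gene higher at 4 h and median differences of 0.20, 0.43, -0.41 and -0.32 at 4, 8, 24 and 48 h. With it, 3, 3 and 1 genes lay above the unprimed range at 4, 8 and 24 h, and 2 below it at 24 h, as with quantile normalization. With reference centring NBR1 was no longer below it at 48 h. A 1.5-fold limit gave 4, 5 and 1 genes higher at 4, 8 and 24 h and 1 lower at 48 h. A 4-fold limit gave 1 higher at 4 h, 1 at 8 h and 0 lower at 4 h.

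Leaving out each unprimed array in turn gave 2 to 4 genes below the unprimed range at 4 h, 1 to 2 at 8 h, 0 to 4 at 24 h and 3 to 6 at 48 h, the highest each time without the 8 h array, and 1 to 2 above it at 48 h. The mean effect called 1 probe set without those at the floor and 8 without the time block, and the early minus late effect called 1 after quantile normalization and 21 with a trend and robust prior. None of the 10 genes was called in any of these fits. The mean effect changed sign with reference centring for ATG8H (-0.01), ATG8I (-0.17) and ATG5 (-0.18). Leaving out each pair in turn gave mean effects of -0.13 to 0.10 for ATG8I, -0.13 to 0.13 for ATG5 and -0.02 to 0.48 for ATG7, negative without the 8 h pair for all 3 and without the 48 h pair for ATG5 (-0.05). The causes were not tested.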
